A study of Arabidopsis thaliana with 4 samples.

Results

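The genes described here are 7 components of the Arabidopsis circadian clock, CCA1, LHY, PRR7, PRR5, GI, TOC1 and ELF4, read from 7 of the 22746 probe sets that are not controls. They were taken as a fixed list of probe set identifiers, with no filter on signal. Written with the name of the array, ATH1, the probe sets are ATH1.266719_at for CCA1 (locus AT2G46830 in RefSeq), ATH1.261569_at for LHY (AT1G01060), ATH1.250971_at for PRR7 (AT5G02810) and ATH1.249741_at for PRR5 (AT5G24470). The evening genes are read from ATH1.264211_at for GI (AT1G22770), ATH1.247525_at for TOC1 (AT5G61380) and ATH1.267364_at for ELF4 (AT2G40080). The platform annotation used here names the gene of 1 of the 7 probe sets, GI, and lists none for the other 6. For those 6 the gene name is the one paired with the identifier in the list.

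The study compared leaf primordia of the mutant an3-4 with those of the wild type, with 2 Affymetrix arrays for each genotype. The labels give the ecotype Col-0 for both genotypes. All plants grew in continuous light at 22 °C, and the first leaf primordia were frozen 7 days after sowing. ANGUSTIFOLIA3, the gene mutated in an3-4, encodes a coactivator of transcription that keeps cells dividing in growing leaves. The labels do not give the hour of harvest, do not say whether the genotypes were harvested together, and do not tie the arrays of a genotype to separate cultures. What the p-values rest on is thus spread between arrays of a genotype, and that spread may be technical only. With 2 arrays in each genotype the smallest p of an exact permutation test is 0.333, so each call rests on the spread that limma pools over probe sets.

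The plant clock is a loop of repressors whose transcripts peak at successive times of day. CCA1 and LHY, Myb-like transcription factors that peak around dawn, repress the genes that peak in the evening. The pseudo-response regulators PRR7 and PRR5, which peak during the day, and TOC1, which peaks in the evening, repress CCA1 and LHY in turn. GI, which also peaks in the evening, stabilises the F-box protein ZTL that removes TOC1 and PRR5, and ELF4 belongs to the evening complex that represses PRR9 and other day genes. In continuous light the loop keeps running without an external cue. For genes whose rhythms mirror each other, a shift in phase moves the levels found at a single hour in opposite directions. Rhythms that are not exact mirrors can move the same way at some hours.

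Of the 7 clock genes, all those with day and evening peaks had higher signals in an3-4 than in wild type. Both of the 7 with morning peaks had lower ones. PRR7, PRR5, GI and ELF4 rose between 2.23-fold and 3.28-fold with the signals as deposited. For TOC1 the fold was 1.49. In the fit on genotype alone TOC1 did not pass as deposited and passed with all arrays at 1 trimmed mean, as did LHY, which was lower. CCA1, at 0.814 of its wild-type level, passed in neither of these fits. All 3 depended on the model and the scaling. Both an3-4 signals lay above both wild-type signals for 5 of the 7 genes, as for 17.6% of all probe sets, and below them for the other 2, as for 13.9% of all probe sets.

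**Figure D1:**
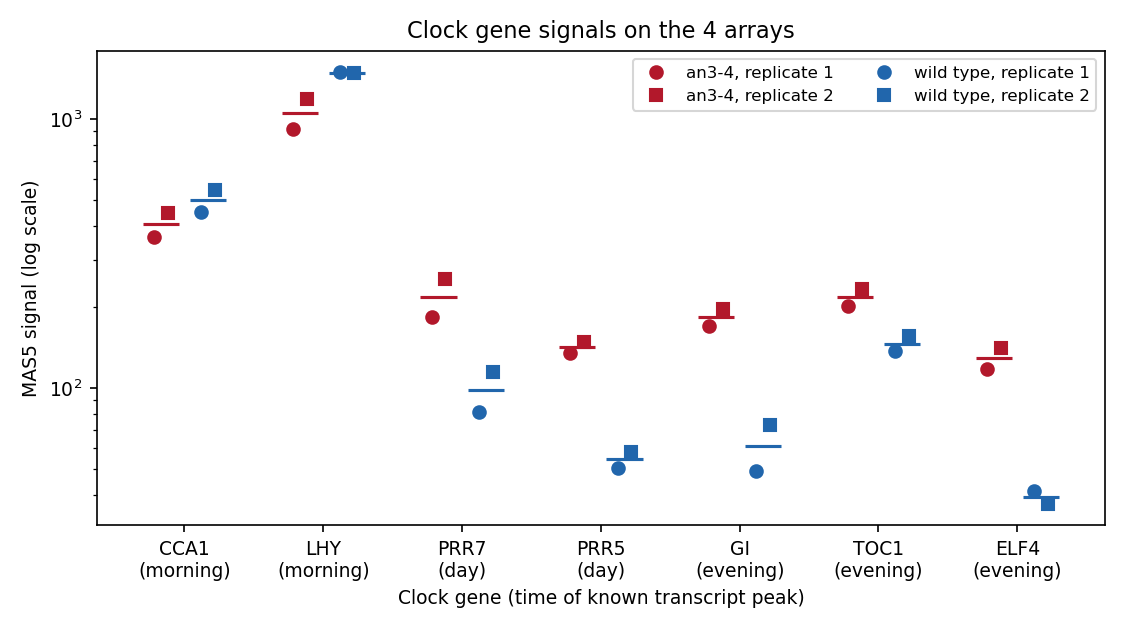
MAS5 signal (log scale) of the 7 clock genes on each array, with an3-4 in red to the left of wild type in blue, circles for replicate 1, squares for replicate 2 and a line at the mean of each genotype. In an3-4 both arrays lie below both wild-type arrays for CCA1 and LHY, and above both for the other 5 genes.

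With limma on the signals as deposited, 4 of the 7 genes were higher in an3-4 and 0 were lower at a Benjamini-Hochberg adjusted p under 0.05. Over all 22746 probe sets 1.16% were higher and 1.21% were lower by the same rule. At an unadjusted p under 0.05, 5 of the clock genes were higher and 1, LHY, was lower. Of all 22746 probe sets, 1132 were higher and 1016 lower by that rule. The deposited arrays carry a scale offset: the mean signal with 2% trimmed from each end was 142 on the an3-4 and wild-type arrays numbered 1 and 168 on both numbered 2, a log2 ratio of 0.24. The offset leaves fold changes nearly as they are and widens the spread within each genotype. With all arrays brought to 1 trimmed mean, limma called 5 clock genes higher and 1 lower, where 2.65% and 2.51% of all probe sets were called. The median log2 fold change of the 7 genes was 1.16, against 0.02 over all probe sets.

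**Figure D2:**
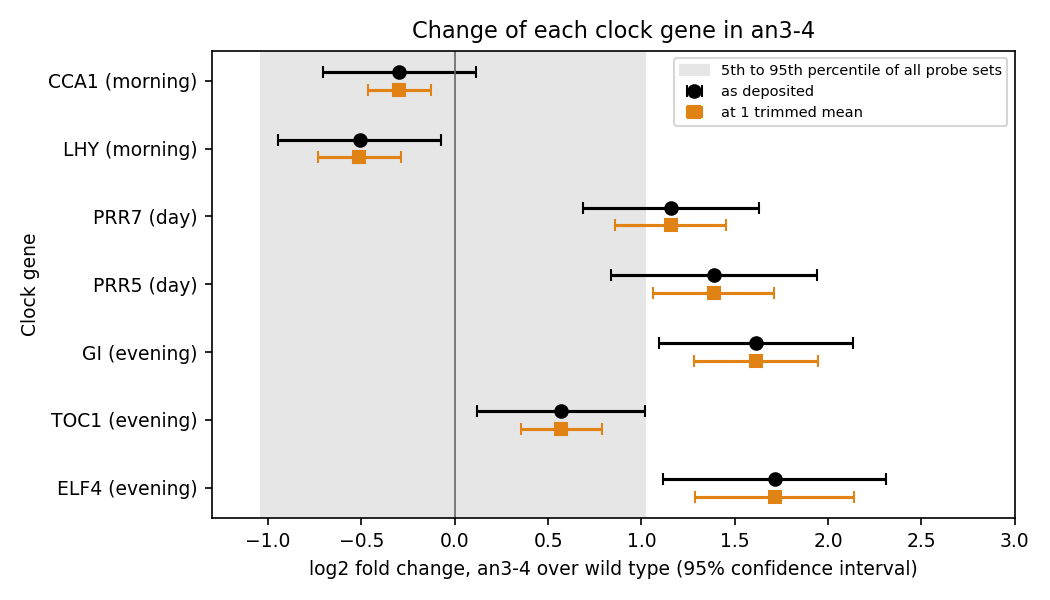
Log2 fold change of an3-4 over wild type for each clock gene with its 95% confidence interval from limma, as deposited (black circles) and with all arrays at 1 trimmed mean (orange squares). The grey band spans the 5th to 95th percentile of all probe sets, -1.04 to 1.02, and PRR7, PRR5, GI and ELF4 lie to its right.

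Both morning genes had lower signals in an3-4. LHY had signals of 917 and 1188 on the an3-4 arrays and of 1493 and 1479 on the wild-type arrays. Each an3-4 signal was therefore below each wild-type signal. As deposited, the an3-4 arrays differed more from each other than the wild-type arrays did. The log2 fold change of LHY was -0.51 ± 0.22 (SE, n = 2 arrays per genotype), and the limma adjusted p was 0.340 before and 0.0192 after the arrays were put at 1 trimmed mean. Brought to that common scale, the signals of LHY were 1001 and 1095 in an3-4, against 1631 and 1364 in wild type. The wild-type arrays then differed more from each other than the an3-4 arrays did. At that scale the call of LHY was lost without an3-4 replicate 1 (-0.45, limma adjusted p = 0.0939) and without wild-type replicate 1 (-0.38, limma adjusted p = 0.0746).

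CCA1, the close relative of LHY, had 365 and 448 in an3-4, against 452 and 546 in wild type. The higher an3-4 signal and the lower wild-type signal were nearly equal, but these come from arrays on different scales. Set against the wild-type array of the same scale, CCA1 was lower by almost the same amount each time, with log2 ratios of -0.31 for the arrays numbered 1 and -0.29 for those numbered 2. Its log2 fold change was -0.30 ± 0.21, with a 95% confidence interval of -0.71 to 0.11 and a limma adjusted p of 0.856. At 1 trimmed mean the interval was -0.47 to -0.13 and the limma adjusted p was 0.0577, just over the threshold. Of all probe sets, 18.6% had a lower log2 fold change than CCA1 and 11.8% a lower one than LHY.

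Both pseudo-response regulators with day peaks rose. PRR5, the later of the pair, had signals of 135 and 149 in an3-4, against 50.5 and 58.0 in wild type. The arrays of each genotype lay close together, and both an3-4 arrays stood far above both wild-type arrays. On the log2 scale PRR5 was higher by 1.39 ± 0.28 (limma adjusted p = 1.42e-04), and the arrays of equal scale gave 1.42 and 1.36. PRR7 had 184 and 254 in an3-4, against 81.4 and 115 in wild type. Its spread within each genotype was wider, but the lower an3-4 signal still exceeded the higher wild-type signal. The log2 fold change of PRR7 was 1.16 ± 0.24 (limma adjusted p = 2.35e-04), and the arrays of equal scale gave 1.18 and 1.14.

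As deposited, both calls depended on wild-type replicate 1: without it the log2 fold change of PRR5 was 1.29 (limma adjusted p = 0.0526) and that of PRR7 was 0.91 (limma adjusted p = 0.244). PRR7 also lost its call without an3-4 replicate 2 (0.93, limma adjusted p = 0.143). In these fits a genotype holds 1 array and 1 scale. At 1 trimmed mean both genes passed whichever array was left out, with limma adjusted p from 0.00217 to 0.00817 for PRR5 and from 0.00189 to 0.00719 for PRR7.

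Among the evening genes, ELF4 and GI had the largest changes of the 7. ELF4 had signals of 117 and 140 in an3-4, against 41.3 and 37.1 in wild type. Both an3-4 arrays stood well above both wild-type arrays. The log2 fold change of ELF4 was 1.71 ± 0.31 (limma adjusted p = 5.14e-06), and 1.64% of all probe sets had a higher one. The signal of wild-type replicate 2 was below the 40th percentile of that array's signals, 38.3, and with such signals set to the percentile of their array the change was 1.69.

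GI had 170 and 197 in an3-4, against 49.0 and 72.6 in wild type. Every an3-4 signal was more than double every wild-type signal, and the wild-type arrays differed from each other by more than the offset in scale. On the log2 scale GI was higher by 1.62 ± 0.27 (limma adjusted p = 3.93e-07). The arrays of equal scale gave 1.79 and 1.44. The calls of GI and ELF4 held without any 1 array, at either scale.

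TOC1 had 201 and 234 in an3-4, against 137 and 155 in wild type. The groups did not overlap, and the arrays of equal scale differed by nearly the same log2 ratio, 0.55 and 0.59. The log2 fold change was 0.57 ± 0.23, and the limma adjusted p was 0.252 before and 0.0103 after rescaling to 1 trimmed mean. At that scale the call of TOC1 was lost without an3-4 replicate 1 (0.56, limma adjusted p = 0.0621). Of all probe sets 11.1% had a higher log2 fold change than TOC1.

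The 3 evening genes thus had unequal estimates. Within an array, the log2 ratio of GI to TOC1 was higher in an3-4 than in wild type by 1.05, and that of ELF4 to TOC1 was higher by 1.14, with no overlap between genotypes for either. For GI against ELF4 the genotypes overlapped in that ratio, and the difference was -0.10. These differences between genes were not tested.

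To set morning against evening genes independently of array scale, each gene's log2 signal was centred on its mean over the 4 arrays. The mean of CCA1 and LHY was then subtracted from the mean of GI, TOC1 and ELF4 on the same array. This evening minus morning difference was 0.90 and 0.80 on the an3-4 arrays and -0.89 and -0.82 on the wild-type arrays. Centring makes the means of the genotypes equal and opposite, so their opposite signs are no result in themselves. The genotypes were thus 1.70 apart on the log2 scale, against an SD between arrays of 0.07 in an3-4 and 0.05 in wild type (n = 2 each). With PRR7 and PRR5 in place of the evening genes, the difference was 0.85 and 0.82 in an3-4, against -0.95 and -0.73 in wild type. The genes had been chosen with these results known, so no test was made of either difference.

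**Figure D3:**
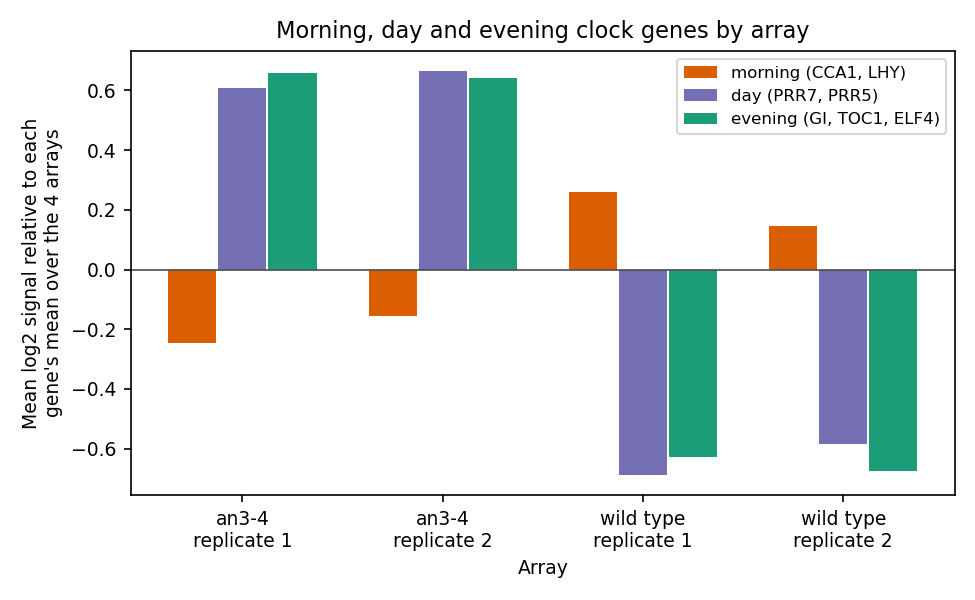
Mean log2 signal of the morning (CCA1, LHY), day (PRR7, PRR5) and evening (GI, TOC1, ELF4) genes on each array, each gene centred on its mean over the 4 arrays with arrays scaled to 1 trimmed mean. Morning genes stand at -0.25 and -0.16 in an3-4 and at 0.26 and 0.15 in wild type, opposite in sign to day and evening genes on every array. Centring makes the genotype means of a class equal and opposite, so the signs on the 4 arrays are not separate observations.

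The signs can be read against a shift in phase. Such a shift moves morning and evening genes in opposite directions if their rhythms mirror each other, which was not examined here. The 3 evening genes had positive estimates while CCA1 and LHY had negative ones. Both day genes had positive estimates too, for which no sign is set by that reading. Of the listed genes with morning peaks that the annotation names, RVE6 had a positive estimate, 0.30, and CDF5 a negative one, -0.63, and neither was called. The named evening outputs COR27 and COR28 had positive estimates, 2.47 and 0.93. Their wild-type signals were all under the 40th percentile of the array, and with the floor at that percentile neither was called. The 7 genes were chosen with their signs known, so the signs support no cause. In the fit on genotype alone, PRR7, PRR5, GI and ELF4 were called as deposited. TOC1 and LHY were called at 1 trimmed mean only, and CCA1 in neither fit. These calls come from the same arrays as the signs and are no separate evidence for them. The estimates were unequal in size: PRR7, PRR5, GI and ELF4 had log2 fold changes of 1.16 or more, and CCA1, LHY and TOC1 had smaller ones of -0.30, -0.51 and 0.57. The plants were harvested at 1 age with no hour given, and whether all primordia of a sample shared 1 phase was not measured. A shift in phase, an altered level or amplitude of the same rhythm, and a different hour of harvest between genotypes cannot be told apart. In whole primordia, a change in the share of cells that express a gene and a change in its RNA per cell cannot be told apart either.

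Other clock genes and genes driven by the clock were sparsely named. Of 52 genes listed for the morning, evening and other parts of the clock, its outputs and the photoreceptors, the annotation names 6. Limma called 1 of these 6 higher and 0 lower as deposited, at 1.16% and 1.21% of all probe sets. Below an unadjusted p of 0.05 there was 1 of the 6, against 2148 of all 22746 probe sets. The median log2 fold change of the 6 was 0.26, against 0.02 over all probe sets.

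The called gene was COR27, a cold-induced gene with an evening peak whose protein acts back on the clock. COR27 had signals of 42.9 and 45.5 in an3-4, against 6.14 and 10.3 in wild type. Its log2 fold change was 2.47 ± 0.53 (limma adjusted p = 4.54e-04, and 0.0113 at 1 trimmed mean). In wild type both signals were below the 40th percentile of the array, and with signals of that kind set to the percentile the change was 0.28 and was not called (limma adjusted p = 0.940). The call was also lost without wild-type replicate 1 (2.10, limma adjusted p = 0.0526). Its relative COR28 (AT4G33980) had 17.6 and 21.6 in an3-4, against 8.97 and 11.7 in wild type. Those 4 signals were all under the 40th percentile, and its log2 fold change of 0.93 ± 0.59 was not called.

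The remaining named genes had smaller differences, none of which passed in limma at either scale. RVE6 (AT5G52660), a Myb-like activator related to CCA1 with a morning peak, had a log2 fold change of 0.30 ± 0.27. CDF5 (AT1G69570), a DOF-type repressor of flowering with a morning peak, had 40.4 and 35.5 in an3-4, against 54.2 and 63.2 in wild type, a log2 fold change of -0.63 ± 0.36. Its signal on 1 array was under the 40th percentile, and with the floor at that percentile the change was -0.50. The signs of these 2 genes with morning peaks were thus opposite to each other. TIC, a nuclear regulator of the clock, had a log2 fold change of 0.22 ± 0.21. XCT, which affects clock period, had one of -0.37 ± 0.26.

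Likeness to GI was measured over the 4 arrays as the Euclidean distance between log2 signals, each centred on its own mean. Among the 13512 other probe sets with 1 listed gene, AT4G14020 lay closest to GI, at a distance of 0.11, with 67.2 and 75.3 in an3-4 and 20.4 and 30.3 in wild type. AT2G39110 followed at 0.19 and AT4G30650 at 0.20. AT4G30650 had 229 and 230 in an3-4, against 68.3 and 99.6 in wild type. For CCA1 the closest of 13513 probe sets were AT4G32970, IAA18 and AT5G53920, at distances of 0.02, 0.02 and 0.03. Their log2 fold changes were -0.30, -0.29 and -0.29.

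Markers of leaf primordia were read beside the tissue label, which they cannot establish. Of 6 leaf markers the annotation names YAB3, YAB5, PHV, JAG and NUB. Each lay above the 40th percentile on all 4 arrays, as most probe sets of an array do. None of the 5 was called, with log2 fold changes from -0.57 for JAG to 0.12 for PHV. CLV3, the only named gene of 4 meristem markers, was under the 40th percentile on all 4 arrays. No probe set has a listed marker of root, phloem or seed as its only gene, so those tissues could not be assessed. The level of AN3 itself was not analysed here, so the genotype labels were not checked against the mutated gene. RNA integrity was read from 6 pairs of control probe sets, which compare the 3′ with the 5′ end of an actin, GAPDH or ubiquitin transcript. For 3 of the 6 pairs both an3-4 arrays had a higher 3′ to 5′ log2 ratio than either wild-type array, and the mean differences of all pairs ran from -0.02 to 0.23. Its part in the clock gene results was not tested.

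**Figure D4:**
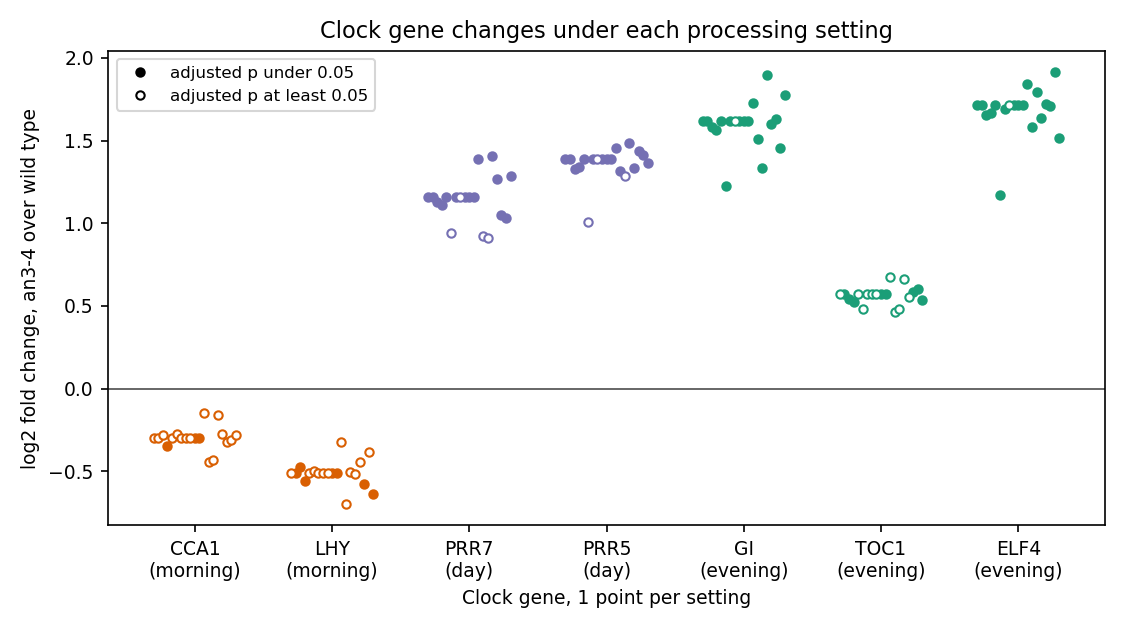
Log2 fold change of an3-4 over wild type for each clock gene under each of 19 settings (1 point each), filled where the limma adjusted p was under 0.05. Each gene keeps its sign in every setting shown, which most of the settings could not have changed. GI and ELF4 are filled in 18 of 19 and CCA1 in 3 of 19.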

How the data were processed

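The authors deposited linear signal intensities, 1 for each probe set and array. The submitters' processing notes name MAS5, a method that corrects for background and mismatch probes and rescales every array. Its version and target are not given in the sources used here.

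Log2 signals, with no offset, were fitted on genotype alone in limma 3.58.1 under R 4.3.3 (lmFit, then eBayes with its trend option). The fit ran over all 22746 probe sets, without the 64 controls and without a filter on signal, and a probe set was called at an adjusted p under 0.05. There are 2 residual degrees of freedom, so the number of arrays limits how well a gene's own spread is known. In this fit the prior degrees of freedom were infinite. Each SE and p as deposited thus came from the spread fitted against mean signal over all probe sets. The spread of a gene's own arrays had no weight in them. At 1 trimmed mean the prior degrees of freedom were 6.96, so a gene's own spread had some weight. Values after ± are SE of the fold change.

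The members, the 52 listed clock genes and the markers were chosen with earlier results of these data known. All 7 members are named, and of each list the called genes (up to 4 a direction) or else the 2 with the smallest p. The 3 probe sets most like GI and CCA1 are also named. Of 13513 probe sets with 1 listed gene, 13436 matched the RefSeq gene table (TAIR10.1), used for names and gene order only. The names of the 6 unannotated members were checked against annotated probe sets with adjacent identifiers. For each of the 7 members the nearest of 4 such neighbours lay on the chromosome RefSeq gives for that name, 2 to 17 genes away. All 4 neighbours of GI, TOC1, PRR5 and PRR7 lay within 16 genes, but the farthest lay 3957 genes from CCA1, 3299 from LHY and 492 from ELF4, so the check is weaker for those 3.

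Arrays with the same replicate number were checked for pairing. Their deviations from the genotype means correlated at -0.01 over all probe sets. A correlation leaves out a shift common to all probe sets, such as the offset in scale, so it does not settle the pairing. The main fit did not use the number as a block. Scripts were tested on simulated data, with 100 probe sets changed by a log2 fold change of 1 and 100 by 2, in either direction. All of these had mean signals above the lowest 40%. As deposited, 65 and 99 were called, beside 27 false calls, all 27 with mean signals in the lowest 40%. At 1 trimmed mean 84 and 99 were called, beside 8 false calls, 3 of them above the lowest 40%. Alternatives were other scalings, a 40% filter, an offset of 32, a floor at the 40th percentile, eBayes without the trend or robust, the replicate block, leaving out each array and an adjusted p under 0.1. Leaving out each array at 1 trimmed mean was added after the data were examined.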

Additional observations from a re-analysis of the deposited data

How the results depend on the processing

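All 7 clock genes kept their sign under all 18 alternatives, most of which could not have changed it. The genotypes did not overlap for any of the 7 genes at either scale, so leaving out an array could not reverse a sign. As deposited, an3-4 lay wholly above wild type for 17.6% of all probe sets and wholly below for 13.9%. These shares were not computed at 1 trimmed mean. The 40% filter, the fits without the trend or robust, and the replicate block leave the fold change itself as it was. Of the 4 called higher as deposited, GI and ELF4 remained called with the offset of 32, which makes 2, while PRR5 and PRR7 lost their calls (limma adjusted p 0.0569 and 0.118, log2 fold changes 1.01 and 0.94). There were 0 without the trend, where limma called 0 higher and 0 lower of all probe sets (837 and 801 at an unadjusted p under 0.05, with 4 and 0 of the clock genes). GI, PRR5, PRR7 and ELF4 had their main log2 fold changes of 1.62, 1.39, 1.16 and 1.71 there. Lower calls among the 7, 0 as deposited, were 1 at 1 trimmed mean (LHY, -0.51) and after quantile normalization (LHY, -0.47), and 2 with medians aligned (LHY -0.56, CCA1 -0.35). TOC1 was called at 0.57, 0.54 and 0.52 in these 3 settings. With the replicate block, at either scale, 5 were higher (TOC1, 0.57) and 2 lower (LHY -0.51, CCA1 -0.30).

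Leaving out each array gave 2 to 4 higher and 0 lower as deposited, and 4 to 5 higher and 0 to 1 lower at 1 trimmed mean, the lone array being assumed to vary like the other genotype. As deposited, these fits shifted the median log2 fold change of all probe sets to values from -0.12 to 0.17. Log2 fold changes were then, as deposited and at 1 trimmed mean, 1.33 to 1.90 and 1.45 to 1.78 for GI, 1.29 to 1.49 and 1.33 to 1.44 for PRR5, 0.91 to 1.41 and 1.03 to 1.29 for PRR7, 1.59 to 1.84 and 1.51 to 1.91 for ELF4, 0.46 to 0.68 and 0.54 to 0.60 for TOC1 (0.59 without an3-4 replicate 2), -0.70 to -0.32 and -0.64 to -0.38 for LHY (called without an3-4 replicate 2, -0.57, and without wild-type replicate 2), and -0.44 to -0.15 and -0.32 to -0.27 for CCA1.

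COR27 was the 1 higher call among listed clock genes. That count was 0 with the 40% filter, which removes COR27, with the floor and without the trend, and 0 to 1 when an array was left out, at either scale. The evening minus morning difference of 1.70 became 1.64 with quantile normalization and 1.35 with the offset, and 1.55 without GI, 1.81 without CCA1, 1.60 without LHY, 2.07 without TOC1 and 1.50 without ELF4. Without each array it was 1.65 to 1.76.

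Over all probe sets, 264 were higher and 276 lower. These counts became 603 and 570 at 1 trimmed mean, 533 and 547 after quantile normalization, 476 and 656 with medians aligned, 60 and 65 with the offset, 155 and 163 with the floor, 967 and 859 with the replicate block, and 965 and 860 with the block at 1 trimmed mean. Leaving out each array gave 87 to 161 and 60 to 274 as deposited, and 286 to 514 and 333 to 410 at 1 trimmed mean. The cause of these differences between settings was not tested.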
